A study of Mus musculus with 2 samples.

Results

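The genes that encode glutamate receptor subunits and their auxiliary proteins were examined in a list of CUT&Tag peaks from mouse hippocampus. The members are a list of 34 genes, and every peak whose assigned gene symbol was on that list was taken, with a gene without a peak counted as 0. This gave 538 of the 99797 peaks, and all 34 genes had at least 1. All 34 symbols were also found as protein-coding genes in GENCODE M21, the reference annotation used for gene positions. CUT&Tag places a transposase at the antibody's target in nuclei, so that DNA near the target is cut and tagged for sequencing. The target was the FLAG tag on PARIS, a zinc-finger transcriptional repressor encoded in mice by Zfp746. The study made 1 anti-FLAG library, described here, and 1 IgG library, which entered only as the control for the authors' peak calling. Both came from untreated hippocampal tissue of C57BL/6J mice with the genotype CamK-PARIS. The age and number of the animals and the promoter that drives the tagged protein are not given in the sources used here. Both libraries share the genotype, so PARIS binding cannot be told apart from an anti-FLAG signal that does not need the tagged protein.

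Glutamate is the main excitatory transmitter of the hippocampus. Ionotropic receptors are cation channels built from AMPA, kainate, NMDA or delta subunits: AMPA receptors carry most fast transmission, and NMDA receptors admit calcium and start many forms of synaptic plasticity. Metabotropic receptors signal through G proteins. Auxiliary subunits such as cornichons, CKAMP (Shisa) proteins and Neto proteins change the gating or trafficking of the channels, and neuronal pentraxins gather AMPA receptors at synapses. The files measure where the tag was found on chromatin and hold no expression values, so nothing below says whether a gene was active.

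Each peak carries the authors' maximum signal, the highest read coverage within it, and their total signal, the coverage summed over its bases. Depth is unknown from these files, and with 1 library no value has a replicate error. The intervals given are exact binomial 95% intervals for shares and order-statistic 95% intervals for medians, and they cover counting error over peaks only. A peak is said to have a constant height where its total signal is at least 99% of maximum signal times width. How such flat coverage arises was not tested. Maximum signal is therefore given to describe and rank peaks, and is not read as strength of binding. Distances run from the region of maximum signal, the summit, to the transcription start site (TSS) that the authors assigned, which can be an internal start of the gene. Negative distances lie upstream. Coordinates are mm10, counted from 1.

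In height and width the member peaks resembled the list as a whole, whose medians lay within the intervals of theirs. Their maximum signal had a median of 102 (97.0 to 107), with quartiles of 64.0 and 135, and ranged from 5 to 503. Over all 99782 annotated peaks the median was 101 and the quartiles were 66.0 and 135. The median width was 346 bp (308 to 373) against 363 bp. Of the member peaks, 9.48% (7.14 to 12.3) were in the top 10% of the list by maximum signal. Constant height was found in 368 of the 538 member peaks, or 68.4% (64.3 to 72.3), against 63.3% of all peaks.

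The summit sequences of the highest member peaks show the kind of DNA on which the signal was centred. They are the 4 highest peaks within 1 kb of a TSS and the 3 highest in an intron of the assigned gene, among peaks whose 120 bp window held no annotated untranslated region or noncoding exon. Each line gives bases 5′ to 3′ on the strand of the gene, from the RefSeq sequence of GRCm38.p6, and capitals mark the region of maximum signal.
Neto2 start, chr8:85701153-85701272 (minus strand): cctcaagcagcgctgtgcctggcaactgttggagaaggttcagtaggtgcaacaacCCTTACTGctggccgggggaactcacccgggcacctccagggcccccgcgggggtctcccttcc
Grin2b start, chr6:136173541-136173660 (minus strand): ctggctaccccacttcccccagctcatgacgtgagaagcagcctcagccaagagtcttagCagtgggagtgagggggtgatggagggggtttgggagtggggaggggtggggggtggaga
Gria1 intron, chr11:57118935-57119054 (plus strand): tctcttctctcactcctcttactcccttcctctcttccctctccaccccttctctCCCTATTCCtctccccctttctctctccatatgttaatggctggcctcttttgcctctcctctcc
Grik3 start, chr4:125490224-125490343 (plus strand): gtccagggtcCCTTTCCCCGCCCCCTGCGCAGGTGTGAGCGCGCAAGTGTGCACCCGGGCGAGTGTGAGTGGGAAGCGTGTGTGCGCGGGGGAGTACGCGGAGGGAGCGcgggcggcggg
Shisa7 internal start, chr7:4836886-4837005 (minus strand): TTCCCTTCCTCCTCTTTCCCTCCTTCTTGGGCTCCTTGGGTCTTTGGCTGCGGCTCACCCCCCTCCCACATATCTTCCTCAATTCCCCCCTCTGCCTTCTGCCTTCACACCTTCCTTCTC
Gria1 intron, chr11:57317780-57317899 (plus strand): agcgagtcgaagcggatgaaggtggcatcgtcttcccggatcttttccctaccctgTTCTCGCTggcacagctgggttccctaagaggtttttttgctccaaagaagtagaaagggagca
Shisa9 intron, chr16:12041067-12041186 (plus strand): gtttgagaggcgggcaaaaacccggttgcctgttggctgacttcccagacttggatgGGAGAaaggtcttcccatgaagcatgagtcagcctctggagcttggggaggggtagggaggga

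These windows differed from each other in composition. The Grik3 window had a GC content of 74.2% and 15 CG dinucleotides, counted on one strand, whereas the higher Grin2b peak had 63.3% GC and 1 CG. The Gria1 window at 57118935 had 0 CG dinucleotides at 52.5% GC. None of the 7 windows held TATTTTT or TATTTTG on either strand, the insulin response sequence reported as a binding element of PARIS, which was present in 6.10% of windows of this length at all annotated peaks.

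**Figure D1:**
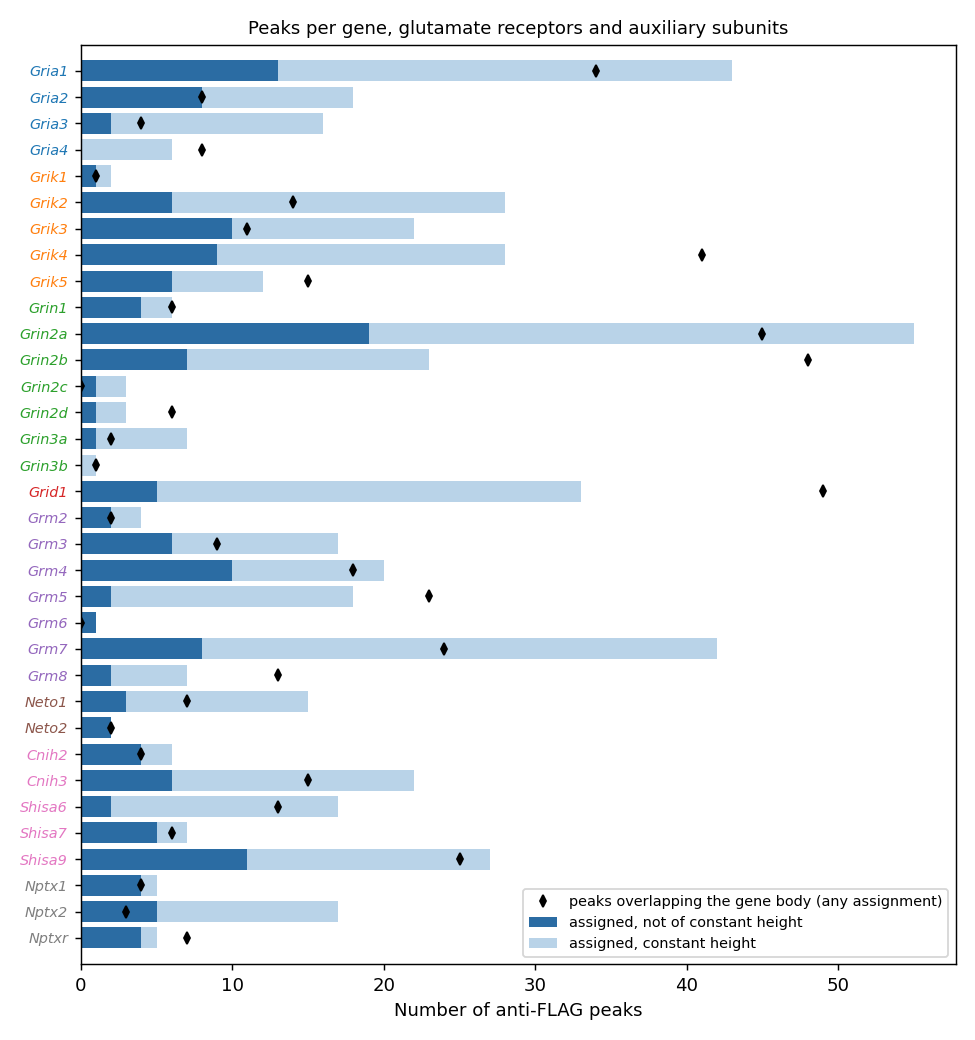
Number of anti-FLAG peaks (x axis) for each of the 34 genes (y axis, coloured by family). Bars count peaks assigned to the gene, split by constant height, and diamonds count peaks that overlap the gene body whatever gene they were assigned to. Grin2a has the longest bar with 55, and Grin2b and Grid1 have diamonds at 48 and 49, far beyond their bars.

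The peaks were unevenly spread over the genes. The median was 15.5 assigned peaks per gene, and the 5 genes with the most held 201 of the 538 (37.4%). These were Grin2a with 55, Gria1 with 43, Grm7 with 42, Grid1 with 33, and Grik2 with 28, a number that Grik4 shared. Grin3b and Grm6 had 1 peak each. Of protein-coding genes, 72.7% had at least 1 assigned peak, with a median of 2 per gene. The longer members had more peaks than the shorter ones. The 20 members of at least 100 kb had a median of 20 peaks, and protein-coding genes of at least 100 kb had 10. These members were also longer, with a median length of 349 kb against 168 kb. The 14 members under 100 kb had a median of 5.

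Assignment to the nearest TSS did not always match the gene in which a peak lay. Of the 538 assigned peaks, 353 overlapped the body of the same gene and 185 lay outside it. Conversely, 468 peaks overlapped a member's body, and 115 of them were assigned to another gene. Of 48 peaks in Grin2b, 27 were assigned to 4930425L21Rik. In the same way 25 of the 49 peaks in Grid1 went to the microRNA gene Mir346, and 15 of the 41 in Grik4 to Tbcel. Grin2b, with 23 assigned peaks, therefore ranked well below Grin2a, with 55, while their gene bodies held 48 and 45.

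A peak within 1 kb of a TSS was assigned to 25 of the 34 members (73.5%). The share of protein-coding genes was 42.5%. Among members of at least 100 kb the count was 14 of 20, beside 63.9% of such genes, whose median length was lower. For members under 100 kb it was 11 of 14, beside 39.7%. Leaving out peaks of constant height, 21 of the 34 had a near peak, beside 28.8% of protein-coding genes. A peak lay over the 5′ end of the gene in 14 members, beside 20.4% of protein-coding genes. Of 20 other genes of AMPA and delta receptor biology, which included the TARP (Cacng) and cerebellin genes, 17 had a peak within 1 kb and 10 had one over the gene start.

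As a share of peaks the direction was the opposite. Only 46 of 538 member peaks, 8.55% (6.33 to 11.2), were within 1 kb of a TSS, against 15.3% of all annotated peaks. Promoter peaks, within 3 kb of a TSS, were 16.4% (13.3 to 19.8) of member peaks and 24.6% of all peaks. Intronic peaks were 50.6% (46.2 to 54.9) against 38.0%, and 265 of these 272 lay in the assigned gene. Distal intergenic peaks were 30.1% (26.3 to 34.2) against 31.9%. The median distance to a TSS was 57350 bp for member peaks and 14783 bp for all. The members were longer than protein-coding genes in general, with a median length of 153 kb against 17.4 kb. Shares for peaks of genes of matched length are not given here, so these contrasts are not read as a trait of the members. Without constant-height peaks the promoter share of member peaks was 27.1% and the distal share 21.8%. The matching shares of all peaks are not given here. These values therefore cannot be set against 24.6% and 31.9%, which include constant-height peaks.

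The 46 peaks within 1 kb were higher than the other member peaks, as near peaks are over the whole list. Their maximum signal had a median of 127 (104 to 162), against 100 (94.0 to 105) for the 492 farther member peaks. All peaks near a TSS had a median of 116 and the farther ones 99. Constant height was found in 43.5% (28.9 to 58.9) of the near member peaks and 44.5% of all near peaks. In 26 of the 46 the middle of the summit was also within 1 kb of the 5′ end of the gene, and these belonged to 20 members. The other 20 lay at internal start sites, and 5 members had near peaks only there.

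**Figure D2:**
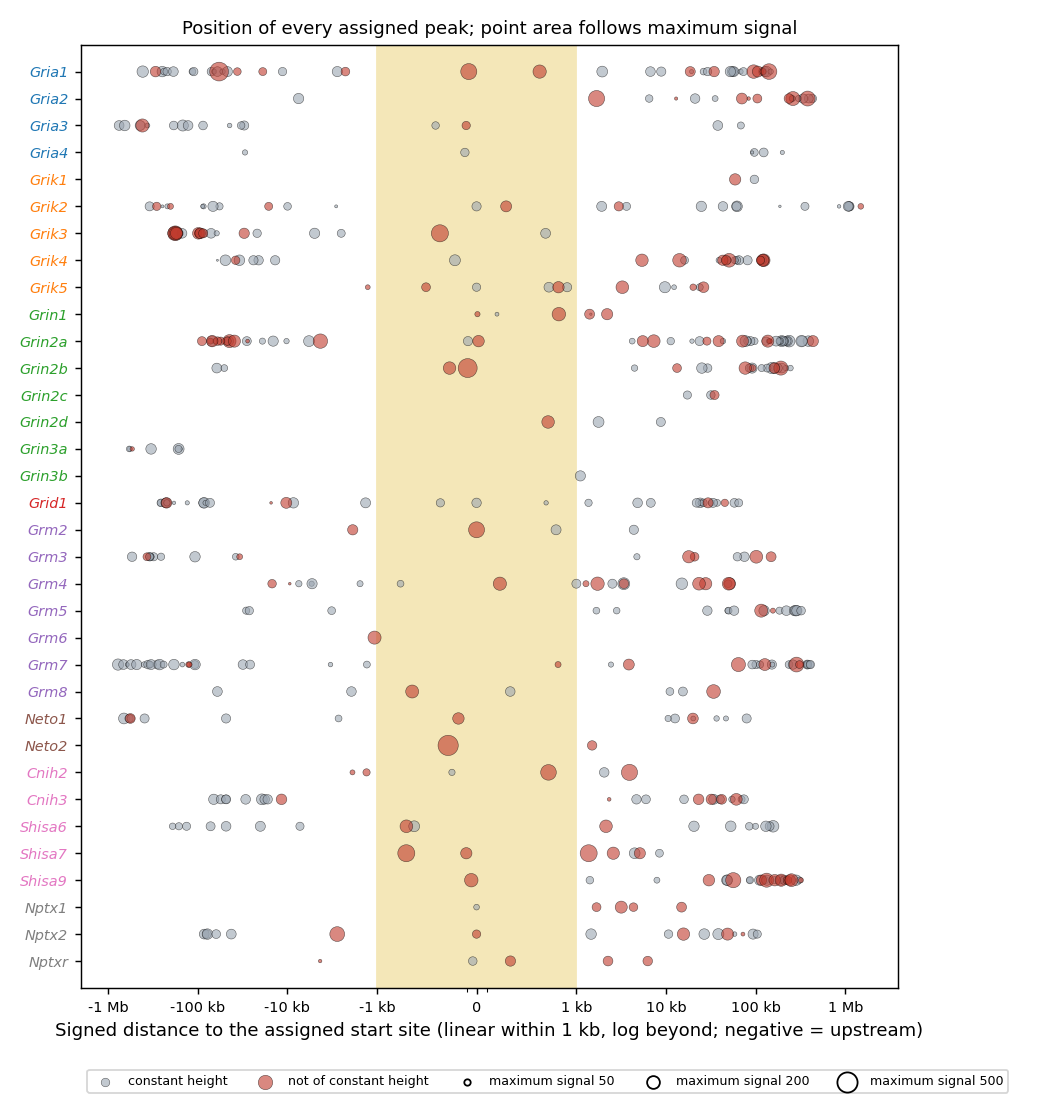
Signed distance of each of the 538 peaks to its assigned start site (x axis, linear within 1 kb and logarithmic beyond), by gene (y axis). Point area follows the authors' maximum signal, colour shows constant height, and the shaded band is 1 kb to either side. Grin3a has points only far upstream, while Grin1 and Nptxr have all of theirs within 10 kb.

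AMPA receptor subunits, which form the channels of fast excitatory transmission, had 83 peaks. Gria1 (chr11:57011387-57330244, plus strand) encodes GluA1, an abundant subunit in hippocampal pyramidal cells. A peak of 1418 bp with a maximum signal of 317 spanned its 5′ end, with the summit at -78 bp. A higher peak of 434, the third highest of all member peaks, lay in intron 2 of 15 (chr11:57118620-57119283), 107607 bp into the gene, and 2 others, of 225 in intron 11 and 301 in intron 15, lay farther along. Gria1 thus had high peaks both at its start and along its introns.

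Gria2 encodes GluA2, the subunit that makes AMPA channels impermeable to calcium. It had 18 assigned peaks but none within 1 kb of a TSS by the authors' distances. Its highest, at chr3:80800714-80801954 with a maximum signal of 320, had its summit 1688 bp downstream of the assigned TSS. Of its 18 peaks 10 were distal intergenic. They included peaks of 275 and 243 that lay 380836 and 261034 bp downstream of the TSS, beyond the end of a gene of 121 kb. Gria3 and Gria4 had lower peaks near their starts. At the start of Gria3, the only member on chromosome X, the peak had a maximum signal of 86 with the summit at -104 bp. That of Gria4 had 88 at -117 bp, a constant height like all 6 peaks of the gene.

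Kainate receptor subunits, which act on both sides of the synapse and are prominent at mossy fibre synapses, had 92 peaks. Grik3 had the highest, a peak of 1582 bp and a maximum signal of 359 that spanned the 5′ end (chr4:125489733-125491314). Of its 22 assigned peaks 19 were distal intergenic, and 3 of these, with maximum signals of 219, 270 and 226, lay at distances of -181359, -177166 and -174533 bp from the TSS. Inside the gene lay 11 peaks, of which 7 had been assigned to Mir692-2. Grik2 had 28 peaks, 14 of them in the gene. The peak over its 5′ end had a maximum signal of 149, the highest of the 28, and the start of the unnamed gene Gm48123 lay within 1 kb of it. The peak nearest to a TSS, at 0 bp, had a constant height of 105 and lay at an internal start 5680 bp into the gene.

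Grik4 and Grik5 encode the high-affinity subunits, which need Grik1, Grik2 or Grik3 partners to form channels. Grik4 had its highest assigned peaks in intron 3 of 20, at 233 and 226. Near a TSS it had only a constant-height peak of 75 bp and 148 in maximum signal, at -217 bp from an internal start. Grik5, at 62.5 kb, had 5 peaks within 1 kb of annotated starts, the most of any member. Their maximum signals ran from 85, in the peak at 0 bp, to 159, and the highest peak assigned to the gene, 198, was in an exon. Grik1 was nearly free of peaks. It had 2, of 159 in distal intergenic sequence and 90 in intron 1, and the nearer was 59185 bp from a TSS.

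NMDA receptor subunits, the coincidence detectors of synaptic plasticity, had 98 peaks. They fell unevenly over the 7 genes. Grin1, the obligatory subunit, had all 6 of its peaks in the promoter class, with maximum signals of 19, 7, 34, 156, 123 and 224 from the 3′ to the 5′ end of the gene. The highest spanned the 5′ end (chr2:25318234-25319581), and the lowest 3 lay near internal starts, the one of 34 nearest at 9 bp. At Grin2b, the GluN2B subunit that predominates early in development, a peak of 1520 bp reached 442 over the 5′ end (chr6:136172653-136174172). The start of the unnamed gene Gm26653 lay within 1 kb of that peak, so the signal cannot be given to a single gene.

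Grin2a, the GluN2A subunit that rises with maturation, had the most assigned peaks of all members. The bodies of Grid1 and Grin2b held more peaks than its own, 49 and 48 against 45. Of the 55 peaks assigned to Grin2a, 40 were intronic, as were 19 of the 23 assigned to Grin2b. In Grin2a 19 were not of constant height, and the highest, 255 and 211, were in intron 3 of 13. Unlike Grin2b, it had no peak over its 5′ end. The nearest to a TSS, with a maximum signal of 162, had its summit 20 bp from an internal start, 3251 bp into the gene. Grin2d, which in the adult hippocampus is known from interneurons, had 3 assigned peaks with a highest of 194 at an internal start. Its body held 6 peaks, 3 of them assigned to other genes.

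The remaining NMDA subunit genes had few assigned peaks. Grin2c, best known from cerebellar granule cells, had 0 peaks in its body. Its 3 assigned peaks lay beyond its 3′ end, 2 of them in an intron of Tmem104, and none exceeded 103. The nearest to a TSS was at 17371 bp with 83. For Grin3a, all 7 assigned peaks were distal intergenic and upstream, the nearest at -150601 bp with 7, and the highest had 146. Its gene body held 2 peaks, both assigned to Ppp3r2. Grin3b had 1 peak, of constant height at 129 and 1113 bp from a TSS. Counts of this size cannot separate a gene without signal from one missed at this depth, which is unknown.

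Grid1 encodes GluD1, a delta subunit that binds cerebellins and organises synapses more than it conducts current. Of its 33 assigned peaks, 28 had a constant height. Near its 5′ end (chr14:34820108) lay 3 peaks, all of constant height, with maximum signals of 85, 110 and 24. No peak of Grid1 exceeded 149.

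Metabotropic receptors had 109 assigned peaks over 7 genes, and for none of the 7 did a peak lie over the 5′ end, which 20.4% of protein-coding genes had; with 7 genes nothing is read from this. Grm2, a presynaptic autoreceptor, had its highest peak at an internal start, with a maximum signal of 313 and a summit on that TSS (chr9:106646113-106646660), 9666 bp from the gene start. At the start itself the nearest peak was a constant-height one of 123, 798 bp downstream of the TSS. Grm3, the other group II receptor, had 17 peaks and none nearer than 4752 bp, with a highest of 202 in intron 1.

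Grm4, Grm7 and Grm8 are presynaptic group III receptors. Grm4 was the most densely covered of the metabotropic genes, with 18 peaks in 99 kb, and peaks of 215 and 221 lay 234 and 1730 bp downstream of an internal start. Grm7 had 42 assigned peaks in and around 922 kb, 17 of them distal intergenic, and its highest, 270 and 245, were in introns 3 and 2. The one near its start, at 818 bp, had a maximum signal of 45, and the unnamed gene Gm20387 starts within 1 kb of it. Grm8 had 7, with 231 in intron 2 of 10 and 207 just upstream of the start, at -646 bp, and its nearest was a constant-height peak of 114 at 338 bp. Grm5, the group I receptor of the list, which couples to calcium release, had 18 peaks. The nearest to a TSS was at 1680 bp with a maximum signal of 57, while 209 was reached in an intron. Grm6, the receptor of retinal ON bipolar cells, had a single peak of 211 at -1063 bp and 0 in its body.

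**Figure D3:**
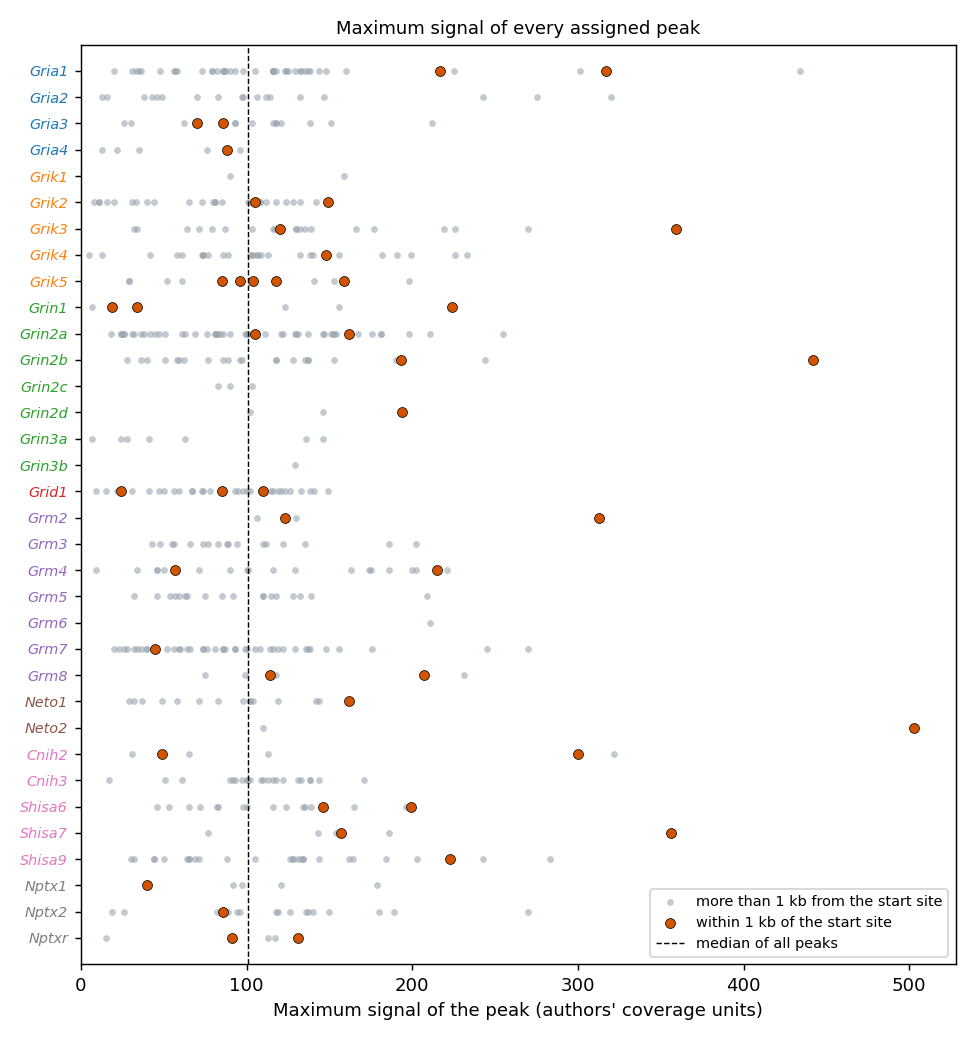
Authors' maximum signal (x axis, coverage units) of each assigned peak by gene (y axis), with peaks within 1 kb of a start site in orange and the median of all annotated peaks, 101, as a dashed line. The near peaks of Neto2 (503) and Grin2b (442) stand at the right, and the highest grey point is the peak of 434 in intron 2 of Gria1.

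Auxiliary subunits held several of the highest peaks. Neto2, which slows kainate receptor kinetics, had only 2 peaks, and 1 of them was the highest of all member peaks (chr8:85700628-85701471). It had a width of 844 bp and a maximum signal of 503, ranked 295 in the whole list, and it spanned the 5′ end of the gene. The microRNA gene Mir8109 also starts within 1 kb of it. Neto1, the paralogue, had 15 peaks, of which the one near its start was the highest at 162.

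The cornichon and Shisa genes, whose products bind AMPA receptors, had 79 peaks. Shisa7 had 7 peaks in and around 19.1 kb, of which 355 was reached 1378 bp downstream of the TSS and 356 at a site 7751 bp from the gene start, and 157 over the 5′ end. Cnih2, the hippocampal cornichon, is only 5.65 kb long and had peaks of 300 over its 5′ end and 322 in its 3′ UTR, and its nearest peak to a TSS was a constant-height one of 49 at -247 bp. In Shisa9, which encodes CKAMP44, a peak of 223 spanned the 5′ end (chr16:11983332-11984477), and peaks of 283, 243 and 203 lay in intron 2. Shisa6 had a peak of 199 at -704 bp among 17, and the nearest was of constant height at 146 and -626 bp. Cnih3 had 22 peaks with a highest of 171, and a low one of 17 was nearest to a TSS, at 2331 bp.

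The 3 pentraxin genes had 27 peaks, of which 51.9% were of constant height. Nptx2, an activity-regulated pentraxin, had 17, and 13 of them were distal intergenic. The highest, 270, lay at -2770 bp, and the peak over the start had 86. Nptx1 had a constant-height peak of 40 over its start, within 1 kb of the start of the unnamed gene Gm11762, and a higher one, 179, in intron 3. Nptxr, the membrane-bound receptor, had 91 and 131 on either side of its TSS. For this family the signal at the start was thus below the highest peak of the gene for Nptx1 and Nptx2.

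Of the 10 highest member peaks, 8 were in the promoter class, 1 was in an intron (Gria1) and 1 in a 3′ UTR (Cnih2), and 0 were of constant height. Counting 1 highest peak per gene, 16 of the 34 were in the promoter class and 11 within 1 kb of a TSS. The matching shares over equally high peaks and over all protein-coding genes are not given here. Peaks near a TSS were higher over the whole list too, so these counts are not read as a trait of the members. These highest peaks ranged from 96, in Gria4, to 503. In 23 of the 34 genes an assigned peak was in the top 10% of the list, beside 24.9% of protein-coding genes, which had fewer peaks each. Among members of at least 100 kb it was 13 of 20, beside 50.1% of such genes, whose median number of peaks was also lower.

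Per length, members of at least 100 kb were close to all protein-coding genes above that limit, although the members were longer at the median. Their gene bodies held a median of 4.55 peaks per 100 kb (quartiles 2.09 and 8.94), against 4.28 (2.35 and 7.10) for the 2489 protein-coding genes of at least 100 kb. Relative to the mean density of the same chromosome the medians were 1.18 and 1.09. Of the 20, 6 were above the third quartile of such genes and 6 below the first, counts close to the share by which quartiles are defined. The former were Gria1 (10.7 peaks per 100 kb), Grik4 (9.62), Grin2a (10.5), Grin2b (10.4), Cnih3 (13.9) and Shisa9 (8.72). The latter were Gria3 (1.44), Gria4 (2.11), Grik1 (0.254), Grik2 (2.02), Grin3a (1.09) and Grm8 (1.51). Gria3 lies on chromosome X, where the mean was 1.21 peaks per 100 kb, so its own density was 1.19 times that of its chromosome.

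Short members had denser bodies than short genes in general. The 14 members under 100 kb had a median of 19.8 peaks per 100 kb (quartiles 13.5 and 30), against 3.86 (0 and 11.8) for protein-coding genes under 100 kb. Pooled over length the gap was smaller, with 17.7 against 7.01. A peak that overlaps the body by 1 bp is counted, so a peak over the start of a short gene counts in full. Cnih2 had 70.7, Nptx1 44.3, Nptxr 38.0 and Shisa7 31.3, while Grin2c and Grm6 had none. In genes this short the density rests on few peaks, 4 in Cnih2 and 7 in Nptxr. A body peak was found in 32 of the 34 members, beside 63.0% of protein-coding genes. Over all members the median density was 1.96 times that of the chromosome (0.805 to 3.22), an interval that includes 1. For all protein-coding genes the median was 0.993. The value of 1.96 mixes members of at least 100 kb, at 1.18, with those under 100 kb, at 4.51. Pooled over length, all members held 5.52 peaks per 100 kb and all protein-coding genes 5.68.

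**Figure D4:**
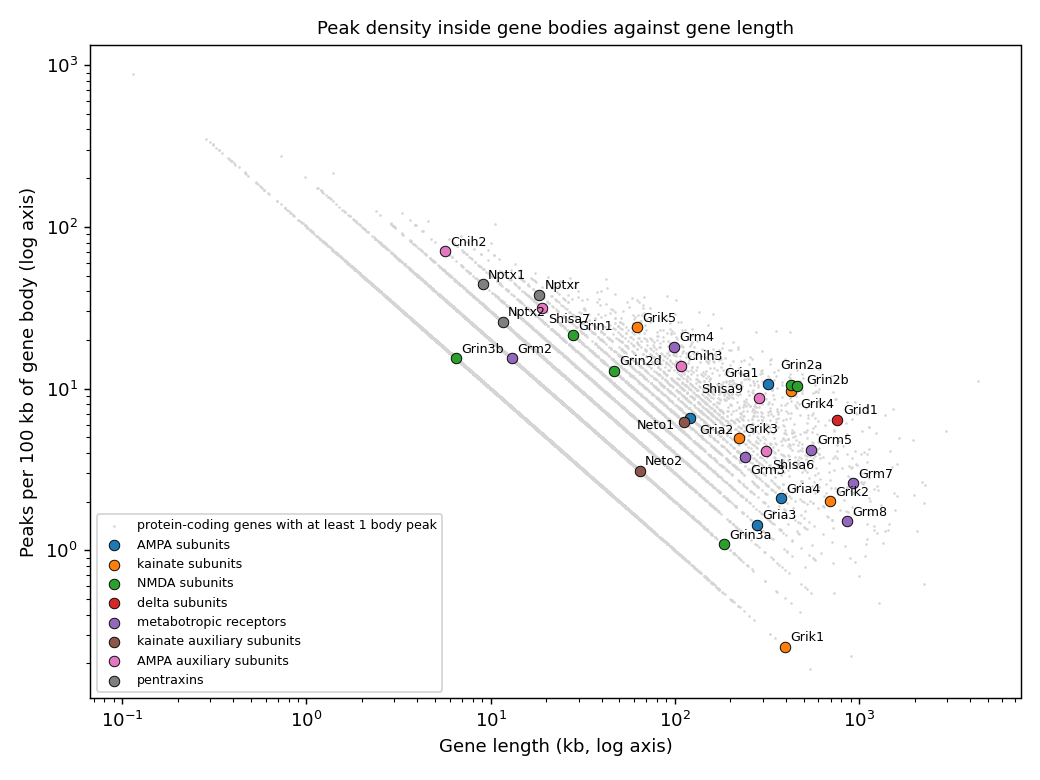
Peaks per 100 kb of gene body (y axis, log) against gene length in kb (x axis, log) for the 32 members with a body peak, coloured by family, over protein-coding genes with a body peak (grey). The grey lines on the left are genes with 1, 2, 3 and more peaks. Gria1, Grin2a, Grin2b and Grik4 group together near 10 peaks per 100 kb, and Grik1 lies lowest at 0.254.

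Sequence at the summits was compared in 200 bp windows with the windows 1000 bp to either side. TATTTTT or TATTTTG on either strand was present in 61 of 538 member summits, 11.3% (8.78 to 14.3), and in 14.8% of their flanks. Over all annotated peaks the values were 9.95% and 13.6%, so in both sets the motif was less frequent at the summit than beside it. In windows of 120 bp the member values were 7.25% (5.21 to 9.78) at summits and 8.36% in flanks. That flank value lies within the interval of the summits. Among the 46 near member peaks 1 summit had it (2.17%, 0.0550 to 11.5), against 5.40% of all near peaks. The highest member peaks whose 120 bp window held the motif and no annotated untranslated region or noncoding exon lay in an intron of Grik4, upstream of Grik3 and just upstream of Grm8, with maximum signals of 226, 219 and 207. Their windows are printed here to show the match, in capitals, on the strand of the gene. All 3 read AAAAATA, the reverse complement of TATTTTT.
Grik4 motif, chr9:42794418-42794537 (minus strand): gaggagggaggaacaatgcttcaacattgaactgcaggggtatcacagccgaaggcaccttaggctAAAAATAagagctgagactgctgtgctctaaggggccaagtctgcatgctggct
Grik3 motif, chr4:125309264-125309383 (plus strand): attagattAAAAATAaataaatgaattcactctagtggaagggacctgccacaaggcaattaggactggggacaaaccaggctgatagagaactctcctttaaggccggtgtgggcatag
Grm8 motif, chr6:28135819-28135938 (minus strand): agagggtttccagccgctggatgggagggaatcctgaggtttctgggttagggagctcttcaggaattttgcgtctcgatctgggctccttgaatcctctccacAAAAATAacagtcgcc

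Member summits had a GC content of 47.0% ± 9.11 (SD over 538 windows) and their flanks 44.6% ± 7.72, a mean difference of 2.38 percentage points, against 3.44 for all peaks. Near a TSS the member summits had 60.3% ± 9.50 GC and a mean of 11.0 CG dinucleotides per window, and the farther ones 45.8% ± 8.03 and 1.84. All near peaks had 57.5% and 9.62. Windows with at least 50% of bases in repeats masked in the reference were 15.8% (12.8 to 19.2) of member summits and 15.7% of all summits. The median GC difference between summit and flanks was 2 percentage points (1.25 to 2.75) for members and 3 for all peaks. Split by distance, the medians of all peaks lay within the intervals of the members. Farther than 1 kb from a TSS the medians were 2 for members and 2.50 for all peaks. Within 1 kb they were 4.25 (-0.750 to 12.5) and 6.75. A smaller share of member peaks was near a TSS, so the gap over the whole sets is not read as a trait of the members. The repeat shares of the 2 sets lay within counting error of each other.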

How the data were processed

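Per the labels' protocols, the authors mapped trimmed read pairs to mm10 (Bowtie2) and dropped duplicates and alignments of low quality before SEACR compared the anti-FLAG with the IgG track. Versions, the SEACR mode and the annotation tool are not given in the sources used here. The deposited signal values are the authors' whole-number coverage, as total and maximum per peak. The deposited total in the annotation equalled that in the peak list for 100% of annotated peaks, and 15 peaks had no annotation. Total depth is unknown.

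Peaks were taken for the 34 genes by the deposited gene symbol. Gene bodies, start sites and background shares came from GENCODE M21 (mm10), and sequence from RefSeq GRCm38.p6. With 1 library per antibody no test between conditions was possible, and all comparisons are descriptions. The members and lists were chosen with earlier results of these data known. The repeat and CG counts, the 120 bp motif windows, the division at 100 kb and the share of genes with a peak in the top 10% were added after values had been seen. The text names each gene's peak nearest to a TSS, the 10 highest peaks, the 5 genes with most peaks and genes without a peak within 10 kb. The overlap and motif scripts were tested on simulated intervals and sequences. Python 3.11.15, pandas 2.3.3, SciPy 1.17.1 and pysam 0.24.0 were used.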

Additional observations from a re-analysis of the deposited data

How the results depend on the processing

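The 10 results were recomputed under 46 alternatives: 35 left the value within its counting interval, or a count within 1.5 times the main one, 11 moved it, and 0 reversed it. Counts and shares of members alone have no direction to reverse. Class shares of all peaks under the alternatives are not given here, so the contrasts of member peaks with all peaks were not tested in this way. The number of assigned peaks fell from 538 to 271 with maximum signal above the median and to 170 without constant-height peaks, both by construction. Without constant-height peaks, the promoter share was 27.1%, the distal intergenic share 21.8%, the median percentile of maximum signal 55.4 and of width 52.0, the share with the motif 8.24% and the median GC difference 3.75 percentage points (main values 16.4%, 30.1%, 50.6, 47.9, 11.3% and 2). Merging neighbours within 1 kb gave a promoter share of 13.1%. With maximum signal above the median, the intron share was 45.4% (main value 50.6%). In windows of 400 bp, 23.0% held the motif, as longer windows hold more sequence. The number of members with a peak within 1 kb of a TSS stayed between 20 and 30 of 34. For moves other than those by construction the cause was not tested. No paired analysis was possible because each antibody has 1 library. Unknown depth and the lack of a second library limit every value.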
